A study of Caenorhabditis elegans with 2 samples.

Results

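In whole L4 larvae of Caenorhabditis elegans, 404 of the 2746 autosomal binding sites of the tagged histone demethylase RBR-2 lay inside introns, far from the annotated beginning of any protein-coding gene. They made up 14.7% of autosomal peaks (exact Clopper-Pearson 95% intervals are given below for the shares that are compared), and the deposited list held 3442 peaks in all. A peak was counted here when its summit lay on one of the 5 autosomes, more than 500 bp from every protein-coding gene 5′ end, within a protein-coding gene but in none of its exons, and neither inside another kind of annotated gene nor within 200 bp of a tRNA, snRNA, snoRNA or rRNA gene. The rule used positions and annotation, not signal. The single group consisted of hermaphrodites of strain OP195, a transgenic line whose RBR-2 carries GFP and FLAG at its C terminus, taken 56 hours after synchronisation at the starved L1 stage. There were 2 biological replicates and no second genotype, stage or treatment. One label names an antibody against GFP and another gives rbr-2, so a contribution of untagged RBR-2 cannot be told apart from that of the fusion. Whole animals were used, so a site bound in few cells and one bound weakly in many cannot be told apart either. Peak lists hold no read counts, and the depth of the libraries is unknown. The signal of a peak is the caller's own strength, comparable within a list only.

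RBR-2 is the only KDM5-type demethylase of the worm and removes methyl groups from lysine 4 of histone H3. The trimethylated form of this mark sits mainly at active promoters, and the monomethylated form is common at enhancers. Worm introns are mostly short, but some long ones hold enhancers or the promoters of shorter transcripts of the same gene. The annotated start of a worm gene is often a trans-splice site, which can lie downstream of the place where transcription begins.

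The 201 bp around the summit of 5 strong members show what these sites look like. They are the strongest members that lie among the strongest regions of both replicates, leaving out the members of 1 autosome, whose sequence is not printed here. The ppfr-1 and pbrm-1 sites, stronger than those of pqn-41, were passed over for that reason. The sequences come from RefSeq's copy of the ce11 assembly and are all on chromosome III. Capitals mark matches on either strand to 3 of the 10 motifs searched, namely GAGAGA, the pyrimidine-rich motif CTCTTC, and GGGCGG. A match on the other strand appears as the reverse complement, and neighbouring matches of a repetitive motif may overlap.
Y111B2A.12 (chrIII:12612548-12612748, + strand): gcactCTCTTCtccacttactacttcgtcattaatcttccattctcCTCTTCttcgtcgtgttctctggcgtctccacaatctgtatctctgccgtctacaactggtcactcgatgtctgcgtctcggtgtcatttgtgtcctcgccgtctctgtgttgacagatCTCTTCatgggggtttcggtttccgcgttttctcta
zfp-1 (chrIII:8795782-8795982, + strand): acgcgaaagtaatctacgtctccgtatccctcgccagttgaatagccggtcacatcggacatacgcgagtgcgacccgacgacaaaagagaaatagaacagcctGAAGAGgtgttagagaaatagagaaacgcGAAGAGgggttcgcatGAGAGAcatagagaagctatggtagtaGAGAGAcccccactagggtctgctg
gei-4 (chrIII:349770-349970, + strand): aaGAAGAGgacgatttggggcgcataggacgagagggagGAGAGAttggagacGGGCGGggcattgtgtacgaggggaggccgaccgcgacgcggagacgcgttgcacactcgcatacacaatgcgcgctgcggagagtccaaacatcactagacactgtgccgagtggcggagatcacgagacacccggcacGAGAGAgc
pqn-41 (chrIII:1921298-1921498, + strand): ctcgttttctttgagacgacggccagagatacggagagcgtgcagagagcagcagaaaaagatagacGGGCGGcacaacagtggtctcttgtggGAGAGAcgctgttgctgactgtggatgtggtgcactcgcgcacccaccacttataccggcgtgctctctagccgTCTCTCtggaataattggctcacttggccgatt
pqn-41 (chrIII:1925255-1925455, + strand): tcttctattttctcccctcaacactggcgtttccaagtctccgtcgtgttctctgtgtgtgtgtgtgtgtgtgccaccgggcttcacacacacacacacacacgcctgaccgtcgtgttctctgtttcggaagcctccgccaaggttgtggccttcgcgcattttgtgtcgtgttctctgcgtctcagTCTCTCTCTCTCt

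All 5 windows held GAGAGA or CTCTTC, or their complements. The Y111B2A.12 window, the strongest, held 3 copies of CTCTTC and no GAGAGA. The windows of zfp-1, gei-4 and the first pqn-41 site held 2 non-overlapping copies of GAGAGA each, and the second pqn-41 window held 4 counted with overlaps. Their GC content ran from 49.3% at Y111B2A.12 to 61.7% at gei-4, against a median of 32.3% in windows of this length tiled over the intron DNA that met the rule.

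The intronic sites were of moderate strength. Their signal had a median of 102 with quartiles of 77.6 and 143 and a range of 65.4 to 562. Distal intergenic peaks, which met the same rule outside genes, had the same median of 102 (75th percentile 162), and the 1141 peaks near 5′ ends had a median of 118. Of the members, 152 (37.6%) had a signal at or above the median of all 3442 peaks, compared with 42.3% of distal intergenic peaks and 52.7% of peaks near 5′ ends. In the replicates taken alone, intronic regions had a median signal 0.923 times that of all strongest autosomal regions in replicate 1 and 0.873 times in replicate 2.

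Nearly all members had a region nearby in each replicate's list. As these lists keep background regions, such a match alone does not show a peak in that replicate. A region of each replicate's list, background regions included, lay within 200 bp of 399 of the 404. The signal of those regions ran from 15.9 to 239 in replicate 1 (median 49.9) and from 12.5 to 325 in replicate 2 (median 53.6). Replicate 2 gave the higher value at 249 of the 399 (the lists were called separately, and a common scale is not given), with a median log2 ratio of 0.15 and quartiles of −0.18 and 0.44. Across these sites the log2 signals had a Pearson r of 0.737 and a Spearman rho of 0.650. These coefficients describe peaks that were selected from the same libraries, and peaks are not replicates.

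Taking the 3442 strongest regions of each replicate, 292 members (72.3%, interval 67.6 to 76.6%) were among the strongest of both, against 77.5% of all autosomal optimal peaks. The members' share lay below this background, which falls just outside its counting interval. Distal intergenic peaks had a similar share of 73.0% (69.4 to 76.4%). The share was 80.4% near 5′ ends, 84.4% in noncoding genes or near short RNA genes, and 58.0% in exons. Being among the strongest of both here counts any strong region within 200 bp of the summit. For 6 of the 292 that region was not the nearest one, whose signal is given here as the member's replicate value. Counting the nearest region alone, 286 members (70.8%, 66.1 to 75.2%) and 75.9% of all autosomal peaks were strong in both. By the first count, a further 60 were strong in replicate 1 only, 46 in replicate 2 only, and 6 in neither. Support followed strength: 135 of the 135 strongest members were in both, 117 of the middle 134, and 40 of the weakest 135. Since that list was itself made from the replicates, these shares are no independent measure of reproducibility.

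**Figure D1:**
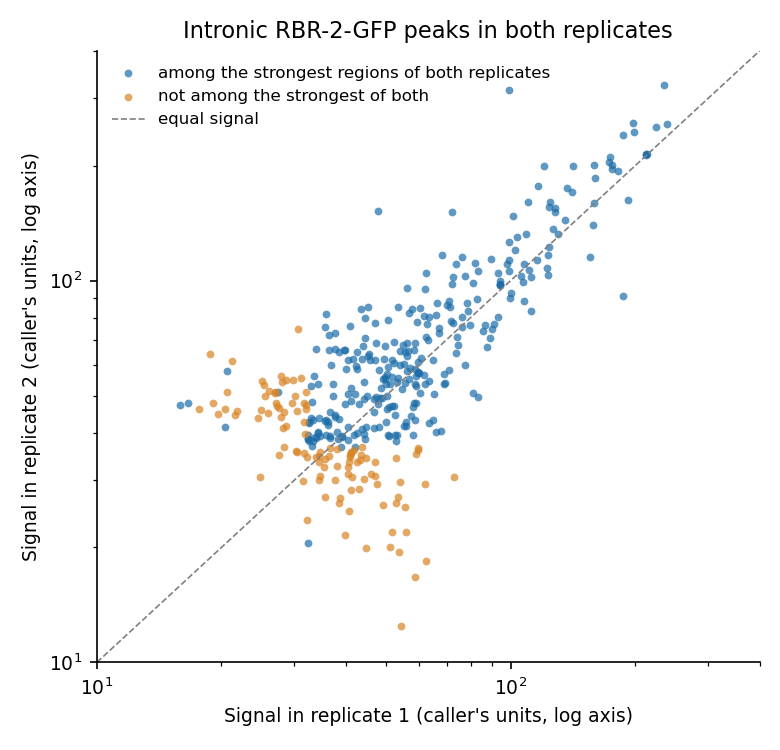
Signal of 399 members in replicate 1 (x axis) and replicate 2 (y axis), in the caller's units on log axes, with 1 point per member. Blue points, for 292 members, had one of the strongest regions of each replicate within 200 bp (for 6 of them not the region plotted), orange points did not, and the dashed line marks equal signal; the strong members lie close to it and the weak ones scatter on either side.

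The strongest of all was in intron 4 of Y111B2A.12 (summit at position 12612648 of chromosome III), with a signal of 562 in the optimal list, 235 in replicate 1 and 325 in replicate 2. The second was in intron 5 of zfp-1, a PHD-finger chromatin gene and homolog of AF10, with 498, 239 and 258. In intron 7 of pbrm-1, which encodes the polybromo subunit of the PBAF chromatin remodeller, the signal was 444, with 198 and 245 in the replicates. All of these sites stood well above the members' median in each library. A site in the first intron of mdt-26, a Mediator subunit gene, had 427, with 213 in both replicates. The let-526 site, in a gene for an ARID-domain subunit of the BAF remodeller, had 384, with 174 and 210. In daf-5, which encodes a Ski-family partner of the dauer SMADs, the strongest site had 378, with 181 and 193.

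The remaining strong sites were in genes of varied function. The gei-4 site had a signal of 481 (224 and 253 in the replicates). The ppfr-1 site, in a gene for a regulatory subunit of protein phosphatase 4, had 462 (197 and 258). In pqn-41, which encodes a glutamine- and asparagine-rich protein, 1 intron held sites of 437 and 429. The replicates gave 187 and 240 for the former and 214 in each for the latter, so their order was not the same in replicate 1 as in replicate 2. Further sites lay in unc-108, the Rab2 gene (363), scc-2, which encodes a loader of cohesin (349), miz-1 (371) and vps-25, a subunit of the ESCRT-II complex (313). T24B8.3 (423), W06H8.6 (375) and K11D2.4 (348) complete the hosts of the 20 strongest members. All of these were among the strongest regions of both replicates, and replicate 2 exceeded replicate 1 at most of them.

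Intron DNA held fewer peaks per length than intergenic DNA. The autosomes had 23.6 Mb of DNA where a summit would have met the rule, 28.6% of their length, and members occurred at 17.1 per Mb (exact Poisson interval 15.5 to 18.9). Intergenic DNA that met the same distances spanned 19.9 Mb and held 32.5 per Mb (30.0 to 35.1). The gap was present in each library, with 17.6 against 31.1 per Mb in replicate 1 and 17.3 against 31.6 in replicate 2. Regions of the pooled list outside the optimal list went the other way, with 261 per Mb in introns and 229 in intergenic DNA. In the optimal list the gap did not extend to long introns. Members occurred at 44.3 per Mb (35.4 to 54.8) in introns of 5001 to 10000 bp and at 65.3 (47.6 to 87.4) in longer ones, above the intergenic density. These intervals, like those on shares, cover counting error only.

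Members lay in long introns. The median length of the intron that held a member was 3254.5 bp (quartiles 1515 and 6256 bp), whereas the median over all bases that met the rule was 1001 bp. Density rose at each step of length, from 2.91 per Mb in introns of up to 500 bp (interval 1.72 to 4.59) through 13.3 at 1001 to 2000 bp (10.4 to 16.9) and 35.5 at 2001 to 5000 bp (30.0 to 41.8) to 65.3 above 10000 bp (47.6 to 87.4). The intervals of the longest classes overlap, while the rise up to 2001 to 5000 bp exceeded counting error. Only 31 members (7.67%) lay within 100 bp of an exon, where 31.3% of the bases were.

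First introns held more than later ones. They contained 134 members (33.2%, interval 28.6 to 38.0%) in 15.7% of the bases, at a density of 36.1 per Mb (30.2 to 42.7) compared with 13.6 (12.0 to 15.3) in later introns. The share was 34.7% in replicate 1 and 31.5% in replicate 2. Part of this went with length, and within each class of length the intervals of first and later introns overlapped. Densities were 9.74 in first and 2.67 in later introns of up to 500 bp, 11.5 and 6.95 at 501 to 1000 bp, and 22.2 and 11.7 at 1001 to 2000 bp. Among introns of 2001 to 5000 bp they were 45.0 and 32.5, and at 5001 to 10000 bp they were 47.2 and 42.7. Above 10000 bp they were 90.5 (60.1 to 131) and 44.8 (26.1 to 71.7), but of those 28 first-intron members 7 were in fkh-7 and 5 in daf-5.

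**Figure D2:**
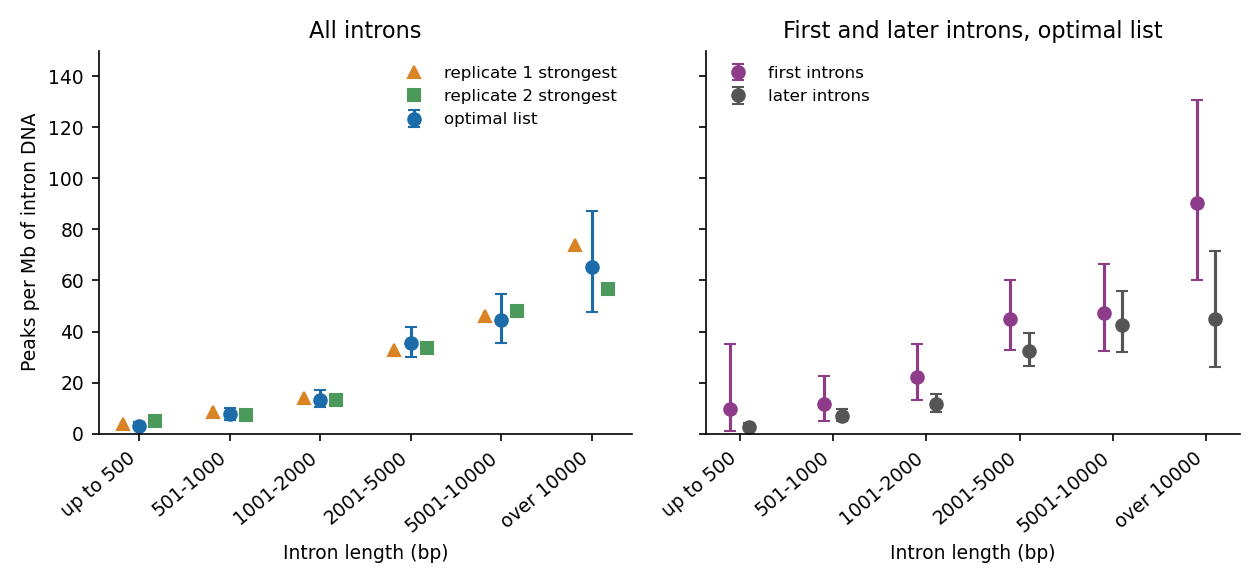
Density of intronic peaks (y axis, peaks per Mb of intron DNA meeting the rule) by intron length in bp (x axis). The left panel gives the optimal list with exact Poisson 95% intervals and the strongest regions of each replicate, rising from 2.91 to 65.3 per Mb in the optimal list; the right panel splits it into first and later introns, whose intervals overlap in every class of length.

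A share of the members lay just upstream of the start of a shorter transcript of their host. Internal starts were the 5′ ends of protein-coding transcripts that differ from the 5′ end of the gene. Within 500 bp of one lay 87 members (21.5%, interval 17.6 to 25.9%), against 9.05% of the bases. The position was one-sided: 49 members (12.1%, 9.11 to 15.7%) were in the 250 bp upstream, where 2.77% of the bases were, and 2 in the 250 bp downstream. The upstream share was 11.6% in replicate 1 and 12.5% in replicate 2, and the downstream counts were 2 and 4. Density was 75.0 per Mb (55.5 to 99.2) in the nearest 250 bp upstream and 6.81 (0.825 to 24.6) downstream. It stayed between 44.9 and 63.3 per Mb in the bins from 250 to 1750 bp upstream, with intervals that overlap that of the nearest bin, and between 10.6 and 22.2 in those from 250 to 2000 bp downstream. The excess upstream, over the 17.1 per Mb of all such DNA, was therefore broad rather than limited to the first 250 bp. Long introns had high densities as a whole, with 35.5 per Mb at 2001 to 5000 bp and 44.3 at 5001 to 10000 bp. The bins were not matched for intron length, and whether the excess goes with length was not tested. In all, 350 members (86.6%) lay in a host with an internal start, against 56.3% of the bases. Any difference from the gene's 5′ end counted, however small: starts lay 10 bp from it in zfp-1 and 9 bp from it in pqn-41. The 350 include members of hosts whose only internal start was that close. Such starts add bases to the downstream bins only.

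**Figure D3:**
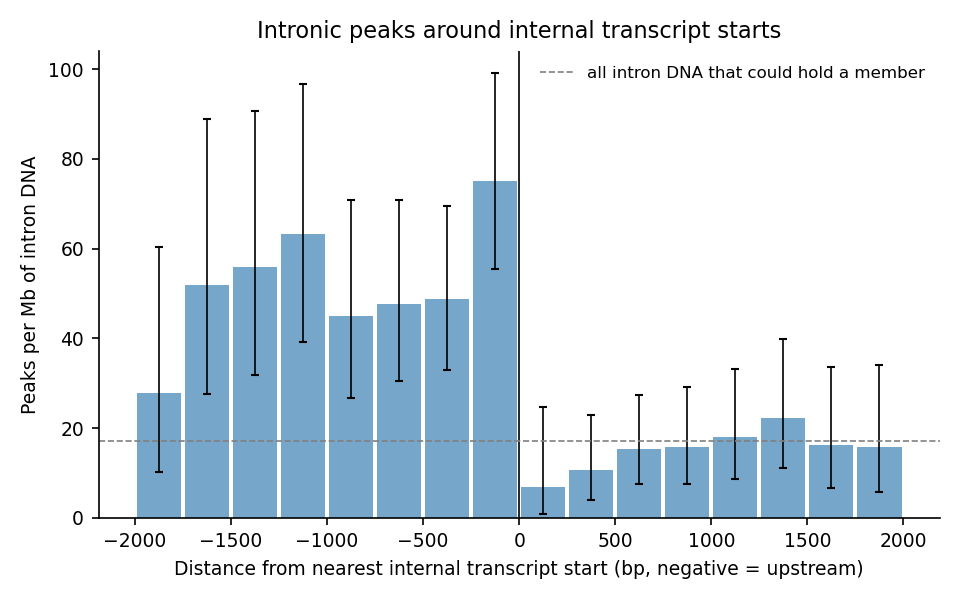
Density of intronic peaks (y axis, peaks per Mb of intron DNA meeting the rule) in bins of 250 bp by distance from the nearest internal transcript start of the host (x axis, bp, negative upstream). Bars are the optimal list with exact Poisson 95% intervals and the dashed line is the density over all such DNA, 17.1 per Mb; upstream bins stand above the line and the nearest downstream bin, with 2 members, below it.

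The strongest of the 49 was in scc-2, 164 bp upstream of an internal start, with a signal of 349 (159.5 and 185 in the replicates). The vps-25 site was 34 bp upstream (313, with 141 and 171), and that of mnk-1, a gene for a MAP-kinase-interacting kinase, was 113 bp upstream (304, with 137 and 175). Further examples were in zip-2, which encodes a bZIP transcription factor (240.0, 221 bp upstream), nurf-1, the large subunit of the NURF remodeller (224, 132 bp upstream) and pde-4, a cAMP phosphodiesterase (221, 163 bp upstream). These examples were chosen by signal after their values were seen. The median signal of the 49 was 89.0, compared with 103 for the other 355 members, their median GC content 47.3% compared with 46.8%, and GAGAGA was present in 57.1% (interval 42.2 to 71.2%) compared with 61.1% (55.8 to 66.2%). The intervals of the GAGAGA shares overlap.

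The 404 members lay in 290 genes, 1.99% of the 14566 autosomal protein-coding genes with intron DNA that met the rule. There was 1 member in each of 219 hosts, 2 in each of 47, and 3 or more in each of 24. Hosts had long introns: they had a median of 6184 bp of such DNA, against 610.5 bp in other genes, and the share of genes that held a member rose from 0.184% with up to 1000 bp to 21.8% with over 10000 bp. Some summits lay close together. Another optimal summit lay 190 to 220 bp from 49 members and none lay closer. Of all members, 18 shared their deposited interval with another optimal peak. With summits within 250 bp counted once there were 379 sites, and 18 hosts still had 3 or more.

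The forkhead transcription factor gene fkh-7 held the most, with 8 members (7 separate sites), 7 of them in its first intron of 16465 bp. Their signals were between 83.8 and 175, and all 8 were among the strongest regions of both replicates. However, the members of 102 and 86.2, which lay 212 bp apart, were matched to the same region of replicate 2. The strongest had 175 in the optimal list, 93.4 in replicate 1 and 80.4 in replicate 2. The next had 157 and 136, and the other 5 had 112 or less. The gene for the catalytic subunit of protein kinase A, kin-1, had 7 members (6 sites) with signals of 66.3 to 154, of which 3 were strong in both replicates. Its strongest, with 71.5 and 85.2 in the replicates, lay 30 bp upstream of an internal start, and others were 111 and 284 bp upstream of such starts.

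In zfp-1 the sites were both frequent and strong. Its 7 members (5 sites) lay in 2 introns, and 4 of them had signals of 322 or more. The strongest in intron 10 had 378, with 173 and 204 in the replicates. Another in that intron had 338 (142 and 200), and a further site in intron 5 had 322 (120 and 199). The summit nearest to the site of 378, 200 bp away, was weak, with 111 (15.9 and 47.4). The values of replicate 2 were the higher in all of these. At daf-5, 5 of 6 members (5 sites in all) lay in a first intron of 14446 bp, and all but the strongest had signals of 75.0 to 123. In pqn-41, 5 members (4 sites) lay in intron 15. The weakest of them, with 76.0, was 199 bp from the strongest, and both were matched to the same region of replicate 1. Such sharing between members involved 4 members in replicate 1 and 2 in replicate 2. Matches to the region of a nearby peak that is not a member were not counted. A member with a signal of 95.2, for example, had 99.1 and 315 in the replicates, and another optimal summit lay 205 bp from it. The ppfr-1 gene had 5 members (4 sites) with signals of 135 to 462, 4 of them in intron 7.

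**Figure D4:**
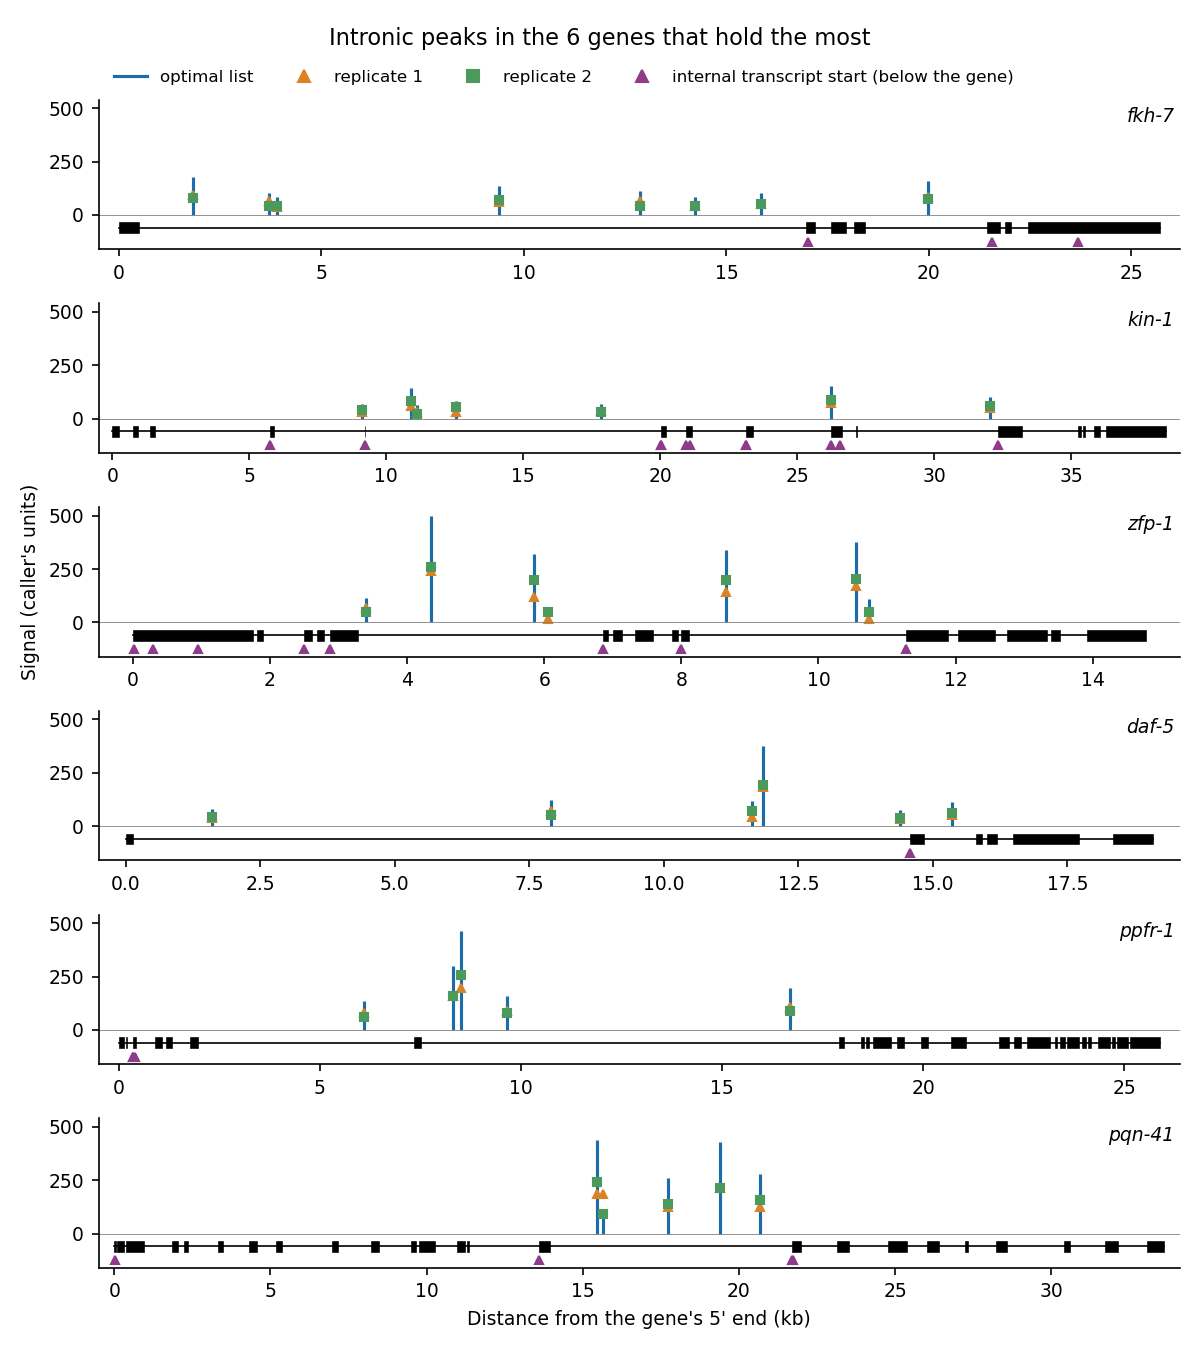
The 6 genes that hold the most members, drawn from the 5′ end of the gene (x axis, kb), with merged exons as black boxes and internal transcript starts as purple triangles. Blue lines give the signal of each member in the optimal list and orange triangles and green squares that in the replicates (y axis, caller's units); fkh-7 has 8 members of at most 175, whereas zfp-1 has 4 of 322 or more.

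Of the other hosts with several members, 4 members each were found in let-526, in lit-1, which encodes a Nemo-like kinase, in ncl-1, a B-box repressor of nucleolar size, and in unc-43, the CaMKII gene. All 4 of unc-43 (74.2 to 123) but only 1 of 4 in lit-1 (67.4 to 98.0) were among the strongest of both replicates. The 4 of ncl-1, all in its first intron, had 66.9 to 128. The other 14 hosts had 3 members each. They included hlh-30, the TFEB homolog (121 to 140.0), vhp-1, a MAP kinase phosphatase gene (89.1 to 227), aakg-1, a gamma subunit of AMPK (156 to 190.4), egl-27, an MTA-family chromatin gene (82.1 to 105), and dmd-6, a DM-domain gene (79.8 to 115). The remaining names were F57A8.1, K11D2.4, T28B11.1, Y111B2A.12, mdt-26, miz-1, mnk-1, spat-2 and tent-5. In Y111B2A.12 and K11D2.4 only the strongest member was strong in both replicates, and the others had signals of at most 71.4.

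Peaks at the hosts' own 5′ ends were also counted. An optimal summit lay within 500 bp of the 5′ end in 46 of 290 hosts (15.9%, interval 11.9 to 20.6%), against 9.21% of all genes with such intron DNA. With the stronger 50% of the peaks used for both, the shares were 8.55% of 117 hosts (4.17 to 15.2%) and 4.96% of genes, which the interval holds. In the full list the difference was largest among hosts with 1001 to 3000 bp of intron DNA. Their share was 22.6% of 53 hosts (12.3 to 36.2%) against 8.83% of other genes of that class. With 1 to 1000 bp the share was 17.6% of 17 hosts (3.80 to 43.4%) against 8.59%, which the interval holds. With 3001 to 10000 bp it was 14.8% against 12.1%, and above 10000 bp 12.8% against 10.7%, where the intervals of the hosts' shares held the value of the other genes.

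Lists of genes by function, some of them overlapping, were set beside the share of 1.99%. Counting genes with intron DNA that met the rule, members lay in 15 of 116 genes for transcription factors other than homeobox proteins and nuclear receptors (12.9%, interval 7.42 to 20.4%). The strongest were in daf-14, a dauer SMAD (289), mef-2, a MADS-box factor (269), zip-2 (240.0) and lag-1, the Notch effector of the CSL family (190.2). This list includes fkh-7, which accounts for 8 of its 28 members. In the replicates daf-14 had 116 and 177, and mef-2 had 156 and 116, so replicate 2 was higher for the former and replicate 1 for the latter. Homeobox genes had members in 1 of 67, namely unc-42 (79.6), which was not strong in both replicates, and nuclear receptor genes in 3 of 246, nhr-19 (199), nhr-46 (98.9) and nhr-34 (72.9). Per length of intron DNA the 3 lists had 62.7, 5.57 and 13.7 members per Mb, with intervals of 41.6 to 90.6, 0.141 to 31.1 and 3.72 to 35.0.

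Pan-neuronal and synaptic genes held members in 14 of 73 (19.2%), the highest share of genes, at 44.1 per Mb of intron DNA (26.5 to 68.8), led by unc-108 (363), rab-3, which encodes a synaptic vesicle GTPase (223), mod-5, the serotonin transporter gene (196), and pkc-1, a protein kinase C gene (181). Axon guidance and adhesion genes had 8 of 61 (13.1%) at 18.2 per Mb (8.31 to 34.5), close to the 17.1 per Mb of all members. Among them were max-2, a PAK-family kinase (159.5), vab-10, a spectraplakin (124), sax-7, an L1-type adhesion molecule (119.8) and unc-119 (108). Actin and muscle genes had 6 of 79 (7.59%) at 12.9 per Mb (4.73 to 28.0), an interval that holds 17.1. They were led by vab-10, fln-1, the filamin gene (119.7), lim-9 (80.4) and unc-94, a tropomodulin (77.2). Signalling genes of the Wnt, Notch, EGF, TGF-beta and insulin pathways had 7 of 74 (9.46%) with 18 members, or 46.8 per Mb (27.7 to 74.0). They were led by daf-5, mpk-1, the ERK gene (274), lag-1 and daf-16, the FOXO factor of the insulin pathway (189).

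The list of histone methylation and chromatin genes had few hosts but many sites, with 13 members at 4 of 73 genes (5.48%). Its density was 71.5 per Mb (38.1 to 122), the highest of the lists given here. The hosts on it were zfp-1, nurf-1 (224), egl-27 (105) and lin-9 (73.1), and 7 of the 13 were in zfp-1. The remodeller genes let-526 (4 members) and pbrm-1 (2 members) are not on this list. The list of splicing and RNA-binding genes had 3 hosts of 79 (3.80%) at 19.1 per Mb (3.93 to 55.7). They were larp-1, a La-related protein gene (279), unc-75, a CELF homolog (81.5), and msi-1, the Musashi gene (66.3). The hosts nova-1 (205), lsm-3 (77.5) and imph-1 (74.1) are not on this list. Heterochronic and molting genes had 4 of 24 (16.7%) at 46.9 per Mb (15.2 to 109), namely sea-2 (177), lin-42, the Period homolog (173), ain-2, a GW182-type microRNA effector (124), and dre-1, an F-box gene (116). None of 25 ribosomal protein genes had a member, but together they had 2.41 kb of intron DNA that met the rule. The lists differ in the length of their introns, and holding a member rose with that length, so the shares are descriptions. They are also selections that do not hold every gene of a kind, so hosts can be missing from them.

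Members were spread over the autosomes unequally. Density was highest on chromosome III at 22.8 per Mb (105 members, interval 18.6 to 27.6) and lowest on chromosome V at 11.0 (54 members, 8.24 to 14.3). These were the highest and lowest in replicate 1 as well, with 23.0 and 11.2. In replicate 2 they were 21.1 and 13.2, with chromosome II close to the highest at 20.9. Chromosomes II, IV and I had 18.4, 18.6 and 15.6 in the optimal list with overlapping intervals. The central 50% of the chromosomes held 241 members (59.7%, 54.7 to 64.5%) in 42.0% of the bases, and the share was 59.0% and 59.9% in the replicates.

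The DNA under the summits was richer in GC than its surroundings. The 201 bp around a summit had a median GC content of 47.3% (quartiles 42.3 and 51.2%), against 35.3% in flanks 500 to 700 bp away. Summits exceeded the mean of their own flanks at 362 of 404 members, with a median difference of 10.9 percentage points. Both replicates' strongest intronic regions had a median of 46.8%. Distal intergenic peaks had 46.3%. Peaks near 5′ ends had 40.8% in this window but 46.5% in the central 101 bp, where members had 47.5%, so the contrast depended on the width of the window. In the 50 bp centred 125 bp from the summit, on its left on the forward strand, the mean GC content was 42.0% around members and 32.1% around peaks near 5′ ends. Soft-masked windows were scarce: those of 24 members (5.94%) were mostly soft-masked in the reference, against 57.4% of tiled windows.

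**Figure D5:**
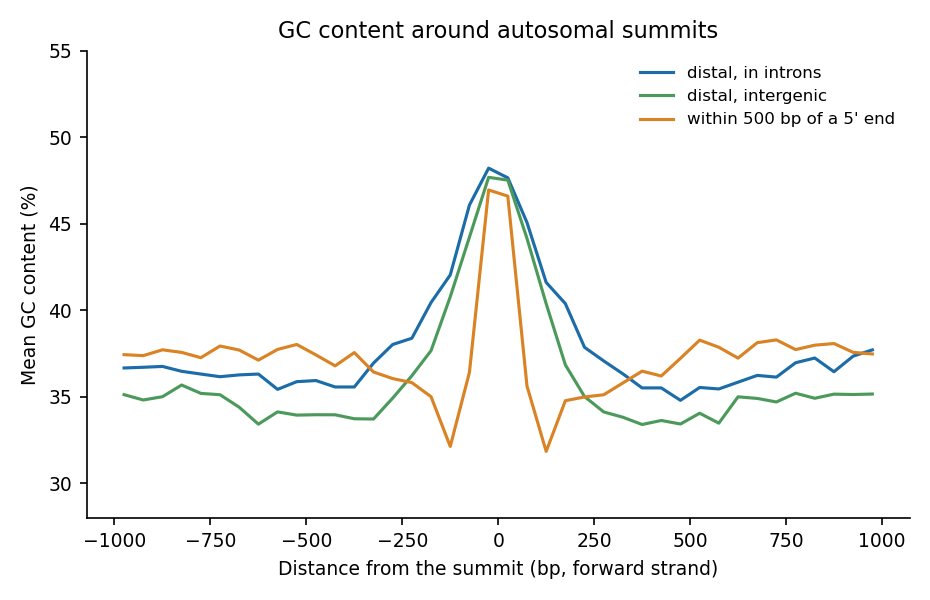
Mean GC content (y axis, %) in consecutive 50 bp steps by distance from the summit on the forward strand (x axis, bp), for the 404 members, 645 distal intergenic peaks and 1141 peaks within 500 bp of a 5′ end. All of them peak near the summit, at 46.6% or more in the steps beside it, and the rise around members and intergenic peaks is wider than around peaks near 5′ ends.

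GAGAGA, on either strand, was the most frequent of the 10 motifs searched. It was present in 60.6% of member windows, 62.5% of distal intergenic windows and 31.6% of windows near 5′ ends, against 11.0% of the members' flanks and 8.23% of 89204 tiled windows of the same length. It was in 69.6% of the 135 strongest members, 56.0% of the middle 134 and 56.3% of the weakest 135. In the central 101 bp the shares were 39.6% in members, 21.2% near 5′ ends and 6.44% in flanks, so this contrast was also present in the shorter window. Among windows with a GC content between the members' quartiles it was in 63.2% of 212 members and 17.4% of 9228 tiles. Of those tiles 30.7% were mostly soft-masked, and of those members 1.89%.

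CTCTTC, which can share letters with a GAGAGA match on the other strand, was in 36.6% of members, 40.9% of intergenic windows and 20.3% of those near 5′ ends, against 7.87% of tiles. In the GC class above it was in 46.2% of members and 18.6% of tiles. The GC-rich GGGCGG was in 12.9% of members and 3.69% of tiles, but in that GC class the values were 9.91% and 9.15%. The E-box-like CACGTG was in 7.43% and 2.80%, and in that class in 7.55% and 6.55%. AT-rich words were less frequent in members than in tiles: TATAAA was in 7.43% against 22.5%, TGATAA in 6.68% against 15.6%, and TAATTA in 4.21% against 9.89%. In the GC class these contrasts were smaller, with 6.60% against 7.83%, 4.72% against 8.01% and 2.36% against 3.78%. TTTCAG, the sequence of worm 3′ splice sites, was in 12.9% against 38.4%, and in that class in 8.49% against 20.7%. TGACTCA and TGTTTAC were each in 2.72% of members. A match describes letters in a window and does not show that a protein binds there.

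The distance of 500 bp sets who is counted. The members nearest to it were in R166.3 (501 bp from the nearest 5′ end, signal 88.1), in marc-5 (518 bp, 102) and in zfp-1 (518 bp from the 5′ end of F54F2.6, 338). The nearest intronic summits inside the limit, and so not counted, were in col-72 (471 bp, 218), Y56A3A.7 (466 bp, 171) and B0432.10 (457 bp, 143).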

How the data were processed

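RBR-2-GFP ChIP-seq was analysed in 2 replicates of 1 group. Per the deposited file descriptions, regions were called in each replicate and in the pool against a control, with background regions kept, and the optimal list came from these lists by the irreproducible discovery rate procedure. Which aligner, caller, versions and threshold were used is not given in the sources used here. In every case, the deposited signal value of each peak, made by the authors, was used within a list only. All 3442 optimal peaks were identical to the strongest of the 30000 pooled regions. The 3442 strongest regions of each replicate (of 26742 and 28724) stand for that replicate. Positions are 1-based in ce11; the older-build lists were not used.

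Genes came from Ensembl release 115, sequence and soft-masking from RefSeq. Introns are gaps between the merged exons of the shortest host gene. Bases meeting the rule formed the denominators. Shares have exact Clopper-Pearson and densities exact Poisson 95% intervals, which cover counting error only. No test was made, because there is 1 group and peaks are not replicates. The assignment of classes was checked on 1000 positions, with 0 disagreements, and on simulated data. Python 3.11.15, numpy 2.4.6, pandas 2.3.3, scipy 1.17.1 and matplotlib 3.10.9 were used.

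Named are hosts of the 20 strongest members, hosts with 3 or more, up to 4 hosts with the strongest members in each of 12 lists, and the 3 members nearest the limit on either side. The result of 1 list is not reported here. The members and lists were chosen with earlier results of these data known. Alternatives were the stronger 50% of the list, each replicate alone, other distances, the 5′ ends of all transcripts, introns of the longest transcript, other windows and overlaps, and, chosen after seeing the data, merging summits within 250 bp, the nearest replicate region alone, and all genes counted with the same list as the hosts.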

Additional observations from a re-analysis of the deposited data

How the results depend on the processing

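Of 88 alternative values, judged against the counting interval or replicate spread, 61 were classed as unchanged and 27 as moved, 8 of these being motif shares. This class was loose for the member count, which passed as unchanged at 317 with the 5′ ends of all transcripts and at 362 beyond 1000 bp. Both counts lay outside the counting interval around 404. A median signal ratio of 0.941 in the stronger 50% also passed, although it lay above the values of both replicates. In the stronger 50% of the list there were 152 members, 11.4% of autosomal peaks and 6.44 per Mb, with 100% in both replicates' strongest regions, a host promoter share of 8.55% (all genes 4.96% with the same list) and a GC content of 48.8%. With the 5′ ends of all transcripts, which removes sites near internal starts by construction, the share was 11.5%, the density 14.8 per Mb and the internal start share 0%. The share was 13.2% beyond 1000 bp. Beyond 250 bp the host promoter share was 21.1% and GC content 46.8%. That share is raised by construction, because a member 250 to 500 bp from its host's 5′ end itself counts as a peak there. Host promoters within 1000 bp gave 30%, internal starts within 250 bp 12.6%, a narrower central part of the chromosomes (1 in 3 bases) 39.6% and GC content over 101 bp 47.5%. In the same way, members 500 to 1000 bp from their host's 5′ end can add to the 30%. Neither that share nor the 21.1% has a share of all genes beside it. Leaving out each replicate, the members' median signal over that of all autosomal peaks was 0.873 to 0.923 (0.912 in the optimal list) and GC content 46.8 to 46.8%. Merging close summits moved nothing beyond these limits (first introns 33.2%, density 16.1 per Mb). No paired analysis was possible because there is 1 group. Depth is unknown, so the precision of single signals could not be calculated.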

Other observations

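All 6-letter words were ranked by the share of member windows that held them, on either strand, minus the share of flanks, a search chosen after seeing the data. GAGAGA ranked highest (60.6% against 11.0%). It was followed by AGAGAG (52.0% against 9.90%), AGAGAA (54.0% against 17.5%), AGAGAC (44.1% against 8.79%) and AAGAGA (48.3% against 14.7%). Each of these words overlaps GAGAGA. The word CGTCTC, whose reverse complement GAGACG overlaps AGAGAC, was in 38.9% of members, 7.55% of flanks and 4.14% of tiled intron windows, and in 40.6% of distal intergenic peaks. It was in 38.6% of the strongest intronic regions of replicate 1 and 36.4% of those of replicate 2. At the other end, AAAATT was in 23.5% of members and 65.2% of flanks.

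A tRNA pseudogene of RefSeq lay within 200 bp of 1 member, and the B box of tRNA genes, a search also added after seeing the data, was found in 1 member window (0.248%) and in 0.176% of tiled windows.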
